A study of Mus with 6 samples.

Results

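The semaphorins, plexins, neuropilins, ephrins, Eph receptors, Slits, Robos and netrins are the classical families of axon guidance. They were chosen here by gene symbol among the protein-coding genes of the deposited table, which gave 63 of its 54532 genes: 34 ligands and 29 receptors. Expression was compared between 3 RNA sequencing libraries of Cntnap4 knockout mice (KO) and 3 of wild-type mice (WT), all labelled male and all labelled as basolateral amygdala, an almond-shaped forebrain region central to fear memory. Cntnap4 encodes a neurexin-related adhesion protein of neurons. The knockout is labelled CNTNAP4-KO and also written CNTNAP4-/-, and the labels list no other allele and no agent for either group. The strain, the age, the deleted part of the gene and whether littermates were used are not stated in the labels, which tell mice apart only by number. The p-values therefore measure the spread between these samples.

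Guidance molecules steer growing axons by attraction or repulsion, and many stay on in the adult brain, where they act on synapses, dendritic spines, myelinating cells and blood vessels. Secreted class 3 semaphorins bind neuropilins, which signal together with plexins, whereas most membrane-bound semaphorins bind plexins directly. Ephrins and Eph receptors signal in both directions between touching cells, Slits repel axons through Robo receptors, and netrins act through the receptors Dcc and Unc5.

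Values are FPKM, that is, fragments per kilobase corrected for library size, so levels can be set side by side between genes. Libraries held 17647556 to 20813211 reads in genes, and the members together took 0.274% to 0.304% of the reads. A tested member rested on a median of 690 reads per library, with a range from 31 for Epha2 to 4218 for Efnb3. Cntnap4 measured 1.61, 1.00 and 1.48 FPKM in KO replicates 1 to 3, against 2.03, 3.59 and 4.91 FPKM in WT replicates 1 to 3 (log2 -1.05 ± 0.28 SE, limma adjusted p = 0.220, exact two-sided permutation p = 0.1, the smallest that 3 against 3 samples allow). KO replicate 1 held the female transcript Xist at 43.0 FPKM and 0 reads on 4 Y-linked genes, against its male label, whereas the other 5 libraries held at most 0.0346 FPKM of Xist. The pieces also differed in regional markers. Slc17a7, the vesicular glutamate transporter of pallial excitatory neurons, measured 21.4, 94.3 and 19.1 FPKM in KO and 5.69, 5.37 and 6.42 FPKM in WT. The hypothalamic peptide gene Avp, which basolateral amygdala is not known for, measured 894, 2.20 and 325 FPKM in KO and 783, 695 and 350 FPKM in WT. Differences below are therefore between the dissected pieces, and in such bulk samples fewer cells of a type and less RNA per cell cannot be told apart.

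None of the guidance genes passed the test over all genes. The test was limma on log2(FPKM + 0.5) over the 16155 genes that averaged 0.5 FPKM or more, with Benjamini-Hochberg adjustment and a threshold of 0.05. It covered 60 of the 63 members and called 0 of them, where 0.0124% of all genes tested were called. Adjusted p-values of the members in limma ran between 0.187 for Plxnb3 and 0.995 for Robo4. At an unadjusted limma p under 0.05, 5 members were higher in KO (8.33%, against 8.36% of all genes tested and 8.54% of the protein-coding ones) and 4 were lower (6.67%, against 6.85% and 6.56%). Both shares lie at the background, and no member beyond Efna3, Efnb1, Sema4b, Slit3 and Sema7a on the higher side and Plxnb3, Sema3c, Sema4d and Sema3d on the lower side reached that level. With libraries rescaled to an equal FPKM sum the split was 2 higher and 5 lower, against 4.09% and 8.17% of all genes tested. With voom, limma's model for reads, on the reads recovered from the table it was 4 higher and 8 lower, against 6.2% and 10.1%. The higher count was 1 without WT replicate 2, against 5.34% of all genes tested, and the lower count was 7 without KO replicate 3, against 6.2%.

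The members were centred on no difference. Their median log2 difference, KO minus WT, was 0.01, the same to 2 decimals as that of all genes tested, with 32 members above and 28 below 0. The range ran between -0.51 for Plxnb3 and 0.64 for Plxnd1. A log2 difference beyond 0.5 in either direction was reached by 3 members (5.0%, against 7.16% of all genes tested). No member differed by a log2 of 1. The groups did not overlap for 8 members that were higher in every KO library (13.3%, against 11.8% of all genes tested) and for 5 that were lower in every KO library (8.33%, against 10.8%).

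**Figure D1:**
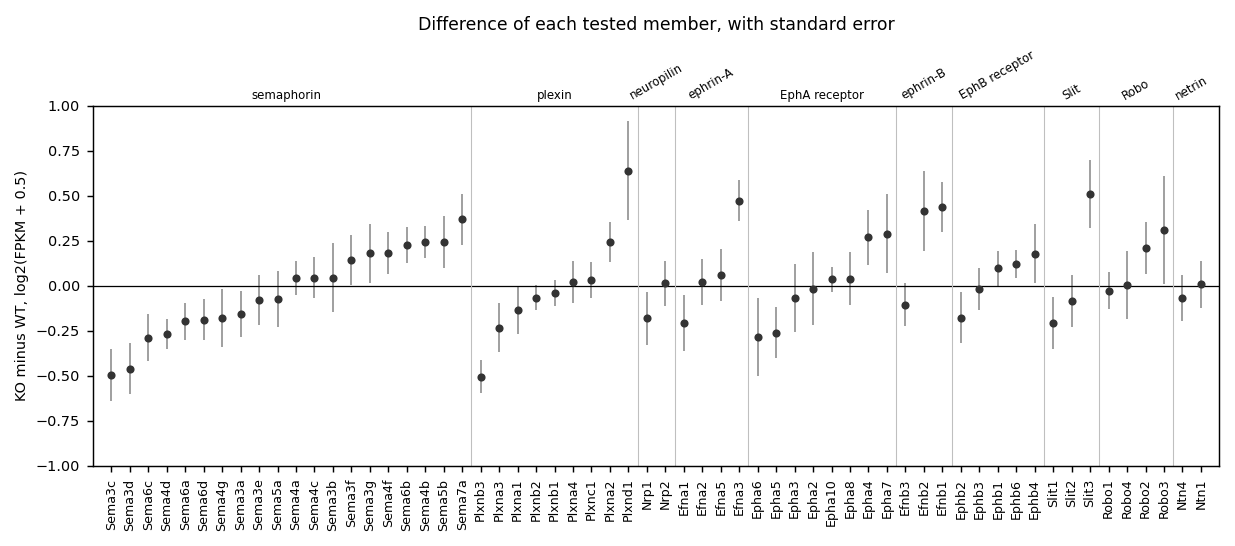
KO minus WT difference of log2(FPKM + 0.5) for the 60 tested members, ordered by size within each family; points are estimates and bars standard errors from the fit over all genes. Plxnd1 stands highest at 0.64 and Plxnb3 lowest at -0.51, and the median is 0.01.

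Among all members the membrane-bound ephrin Efnb3 had the highest level, at 60.0 ± 9.0 FPKM in KO and 64.1 ± 3.42 FPKM in WT (SD, n = 3 each). It ranked 697 of all genes by mean level. The next 3 were Sema6b, Sema7a and Ephb6, with means over the 6 libraries of 32.4, 30.1 and 15.3 FPKM, and the Sema6b and Sema7a libraries overlapped in range. At the low end stood Epha1, an epithelial Eph receptor, Efna4 and Ntn5, with means of 0.172, 0.150 and 0.115 FPKM, and these 3 fell under the filter. Efna4 had 0 reads in KO replicate 2, which allows up to 0.104 FPKM there (3 reads, counting error only). Summed over the 34 ligands, the level was 274, 280 and 278 FPKM in KO replicates 1 to 3 and 267, 259 and 265 FPKM in WT replicates 1 to 3. Over the 29 receptors it was 157, 189 and 159 FPKM in KO and 166, 152 and 160 FPKM in WT. On this scale the ligand sums did not overlap, and the receptor sums did. With libraries rescaled to an equal FPKM sum the ligand sums overlapped too, at 264, 279 and 274 FPKM in KO replicates 1 to 3 and 268, 249 and 293 FPKM in WT replicates 1 to 3.

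**Figure D2:**
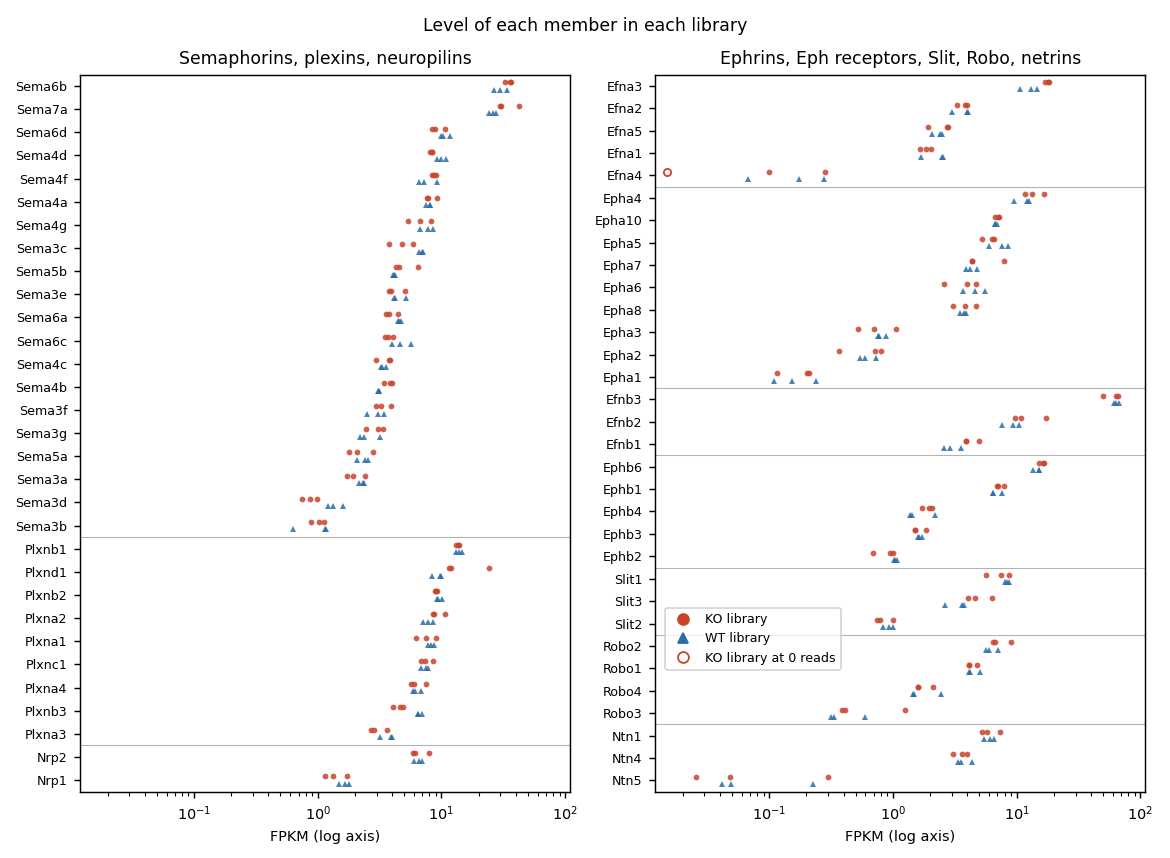
FPKM on a log axis for all 63 members, one row each, with 3 KO libraries as circles above 3 WT libraries as triangles; the open circle is Efna4 in KO replicate 2 at 0 reads, drawn at the axis edge. Families are separated by lines, and most rows show KO and WT points intermixed.

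Semaphorins, the largest family with 20 members, split evenly, 10 above and 10 below 0, with a median log2 difference of -0.01. Those at the unadjusted level were Sema7a and Sema4b on the higher side and Sema3c, Sema3d and Sema4d on the lower side. Over all genes tested, 8.36% were higher and 6.85% lower at that level. Sema7a, a membrane-anchored semaphorin that promotes axon growth through integrins and also binds plexin C1, measured 30.5, 42.2 and 29.6 FPKM in KO replicates 1 to 3, against 27.4, 24.4 and 26.2 FPKM in WT replicates 1 to 3. Every KO library was above any WT library, with KO replicate 2 well above the other two. The log2 difference was 0.37 ± 0.14 SE (limma adjusted p = 0.293), and 0.21 without KO replicate 2. Its receptor gene Plxnc1 overlapped between the groups, at 6.87 to 8.52 FPKM in KO and 6.85 to 7.85 FPKM in WT (log2 0.03 ± 0.10 SE). Sema4b, a transmembrane semaphorin, measured 3.81, 3.44 and 4.02 FPKM in KO and 3.07, 3.10 and 3.10 FPKM in WT. The WT libraries lay close together and below each KO library (log2 0.24 ± 0.09 SE, limma adjusted p = 0.286).

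Sema4d, the ligand of plexin B1 and a product of oligodendrocytes as well as immune cells, measured 8.04, 8.40 and 8.33 FPKM in KO against 9.25, 9.96 and 11.0 FPKM in WT. The 3 KO libraries were tight and all below WT (log2 -0.27 ± 0.08 SE, limma adjusted p = 0.240). Plxnb1, the gene of its receptor and the highest plexin, measured 13.5 ± 0.457 FPKM in KO and 13.9 ± 0.832 FPKM in WT (SD, n = 3 each), with overlapping groups.

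The secreted class 3 semaphorins numbered 7. Sema3c measured 5.85, 3.74 and 4.76 FPKM in KO and 6.94, 7.06 and 6.57 FPKM in WT. All KO libraries lay below WT and KO replicate 2 was lowest (log2 -0.50 ± 0.14 SE, limma adjusted p = 0.230). Sema3d measured 0.860, 0.746 and 0.991 FPKM in KO and 1.33, 1.6 and 1.2 FPKM in WT, from 116 to 248 reads per library. Again no library of one group entered the range of the other (log2 -0.46 ± 0.14 SE, limma adjusted p = 0.246). On chromosome 5 of build GRCm38 Sema3d (12383385 to 12588948), Sema3a (13125414 to 13602565), Sema3e (14025276 to 14256689) and Sema3c (17574281 to 17730268) lie on the plus strand, and all 4 had log2 differences below 0. Those of Sema3a (-0.15 ± 0.13 SE) and Sema3e (-0.08 ± 0.14 SE) were close to their standard error or within it, and their groups overlapped. The other 3, Sema3b, Sema3f and Sema3g, had differences of 0.05, 0.15 and 0.18. Summed, class 3 came to 19.9, 18.9 and 19.1 FPKM in KO and 21.9, 21.0 and 21.9 FPKM in WT. Sema3c alone made up most of that gap.

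Class 6 was led by Sema6b, a transmembrane semaphorin that binds class A plexins, at 32.6, 35.9 and 36.2 FPKM in KO and 29.6, 26.4 and 33.6 FPKM in WT. WT replicate 3 lay above KO replicate 1, so the groups overlapped (log2 0.23 ± 0.10 SE, limma adjusted p = 0.348). Its class mates Sema6a (-0.20), Sema6c (-0.29) and Sema6d (-0.19) had log2 differences on the other side of 0, and their groups overlapped too. Sema5b, of the thrombospondin-repeat class, measured 4.5, 6.43 and 4.31 FPKM in KO and 4.12, 4.08 and 4.24 FPKM in WT. The KO values exceeded WT in each library, yet the log2 difference was 0.24 ± 0.14 SE (limma adjusted p = 0.460) and dropped to 0.08 without KO replicate 2.

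Plexins, the semaphorin receptors, numbered 9 and held both ends of the range. Plxnb3 (X chromosome, 73757090 to 73772514), a plexin known from oligodendrocytes and a receptor of Sema5a, measured 4.61, 4.02 and 4.91 FPKM in KO replicates 1 to 3. The WT libraries measured 6.44, 6.95 and 6.43 FPKM in the same order of numbers. All KO libraries stood clear of WT, at 68.4% of the WT mean. The log2 difference of -0.51 ± 0.09 SE had the smallest limma p of all members (0.000888, adjusted p = 0.187). It missed the adjusted threshold under every alternative tried, with log2 values between -0.60 and -0.43. Without KO replicate 1, the library with Xist, the log2 difference was -0.52. The related Plxnb1 and Plxnb2 had differences of -0.04 ± 0.07 and -0.07 ± 0.07 SE.

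Plxnd1, the plexin that binds Sema3e directly and is known from blood vessels and from striatal and cortical neurons, measured 11.9, 24.3 and 11.4 FPKM in KO and 10.0, 8.44 and 9.82 FPKM in WT. KO replicate 2 held 2.08 times the mean of the other KO libraries. The log2 difference was 0.64 ± 0.28 SE (limma adjusted p = 0.340) and 0.30 without KO replicate 2. Sema3e overlapped between the groups, at 3.77 to 5.09 FPKM in KO and 4.10 to 5.18 FPKM in WT. Plxna2, a receptor of class 6 semaphorins, measured 8.63, 10.8 and 8.62 FPKM in KO and 8.52, 7.10 and 7.73 FPKM in WT. KO replicate 3 and WT replicate 1 all but met (log2 0.25 ± 0.11 SE, limma adjusted p = 0.357). The difference was 0.14 without KO replicate 2. The neuropilins showed no separation, with Nrp2, the higher of the pair, at 6.65 ± 1.13 FPKM in KO and 6.54 ± 0.517 FPKM in WT (SD, n = 3 each), and Nrp1 at a log2 difference of -0.18 ± 0.15 SE.

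**Figure D3:**
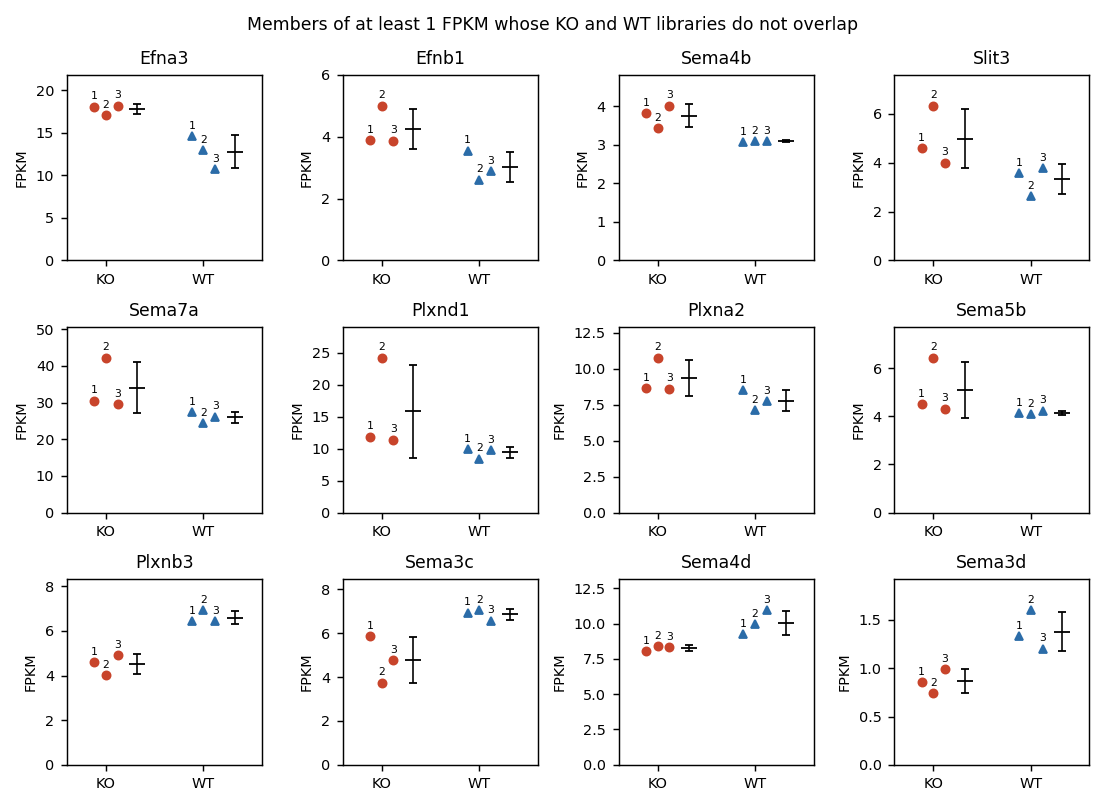
FPKM in each library, axes starting at 0, for the 12 members of at least 1 FPKM whose KO and WT libraries do not overlap; KO circles are left of WT triangles, small digits are replicate numbers, and the black bar is the mean with its SD (n = 3). KO replicate 2 is the top point for Efnb1, Slit3, Sema7a, Plxnd1, Plxna2 and Sema5b and the bottom point for Plxnb3, Sema3c and Sema3d.

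Ephrins came in lipid-anchored A forms and transmembrane B forms. Efna3 (chromosome 3, 89313899 to 89322965), the highest of the A forms, measured 18.1, 17.1 and 18.2 FPKM in KO replicates 1 to 3, against 14.6, 13.0 and 10.7 FPKM in WT replicates 1 to 3. The KO libraries were alike and all above WT, at 139% of the WT mean. The log2 difference was 0.47 ± 0.11 SE (limma adjusted p = 0.205), and KO replicate 2 was the lowest of the 3 KO values. The ephrin genes on both sides of it on the same strand, Efna1 (89271733 to 89281142) and Efna4 (89333390 to 89338028), overlapped between the groups. Efna1 measured 1.85 ± 0.179 FPKM in KO and 2.24 ± 0.478 FPKM in WT (SD, n = 3 each), a log2 difference of -0.21 ± 0.16 SE. Efna2 and Efna5 had differences of 0.02 and 0.06. Efnb1, on the X chromosome, measured 3.90, 5.01 and 3.87 FPKM in KO and 3.55, 2.61 and 2.88 FPKM in WT. Each KO library was above WT, by a narrow margin for replicates 1 and 3 (log2 0.44 ± 0.14 SE, limma adjusted p = 0.25). Efnb2, a ligand of arterial vessels and synapses, measured 9.65, 17.3 and 10.9 FPKM in KO and 10.4, 7.67 and 9.27 FPKM in WT, and the groups overlapped (log2 0.41 ± 0.22 SE).

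Eph receptors, the receptor tyrosine kinases for ephrins, numbered 9 of the A class and 5 of the B class, and none reached an unadjusted p under 0.05 in limma. The highest A receptor was Epha4, which binds ephrins of both classes and acts at hippocampal synapses, at 13.3, 16.6 and 11.7 FPKM in KO and 12.5, 9.51 and 12.1 FPKM in WT. KO replicate 3 lay below WT replicates 1 and 3 (log2 0.27 ± 0.15 SE, limma adjusted p = 0.440). Epha7 measured 4.34, 7.87 and 4.35 FPKM in KO and 4.74, 4.19 and 3.87 FPKM in WT, so only KO replicate 2 stood out. Epha5 (-0.26 ± 0.14 SE) and Epha6 (-0.28 ± 0.22 SE) had the lowest log2 differences of the class, again with overlap. The kinase-inactive receptor Epha10 measured 6.96 ± 0.229 FPKM in KO and 6.78 ± 0.180 FPKM in WT (SD, n = 3 each). Ephb6, also without kinase activity, led the B class at 16.0 ± 0.774 FPKM in KO and 14.7 ± 0.904 FPKM in WT (SD, n = 3 each; log2 0.12 ± 0.08 SE). Ephb2, a synaptic receptor that associates with NMDA receptors, measured 0.940, 0.688 and 0.998 FPKM in KO and 1.01, 1.05 and 1.08 FPKM in WT. It was lower in each KO library (log2 -0.18 ± 0.14 SE, limma adjusted p = 0.588), and its mean of 0.961 FPKM kept it below the level asked of the other non-overlapping members.

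Slits, Robos and netrins, with 3, 4 and 2 members tested, gave 1 member at the unadjusted level, on the higher side. Over all genes tested, 8.36% were higher at that level. Slit3 measured 4.61, 6.35 and 4.01 FPKM in KO and 3.59, 2.62 and 3.78 FPKM in WT. The groups did not meet, but KO replicate 3 and WT replicate 3 were close (log2 0.51 ± 0.19 SE, limma adjusted p = 0.286; 0.34 without KO replicate 2). Slit1, the highest Slit and a neuronal one, measured 8.72, 5.67 and 7.51 FPKM in KO and 8.04, 8.70 and 8.40 FPKM in WT, with KO replicate 1 at the top of all 6 and KO replicate 2 at the bottom. Slit2 had a log2 difference of -0.08 ± 0.15 SE. Robo2, the highest Robo, measured 6.39, 9.07 and 6.64 FPKM in KO and 7.09, 5.71 and 5.95 FPKM in WT, which overlap. Robo1 (-0.03 ± 0.10 SE) and Robo4, the endothelial Robo (0.00 ± 0.19 SE), were centred on no difference. Robo3, known from commissural axons of the hindbrain and spinal cord, measured 0.412, 1.25 and 0.387 FPKM in KO and 0.594, 0.333 and 0.316 FPKM in WT, high in KO replicate 2 alone. Ntn1, the prototype netrin, measured 6.11 ± 1.09 FPKM in KO and 6.03 ± 0.540 FPKM in WT (SD, n = 3 each), and Ntn4, a laminin-binding netrin, had a log2 difference of -0.07 ± 0.13 SE.

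KO replicate 2 stood apart for many members at once, which was noticed from its values. It was the highest of the 6 libraries for 21 of 60 tested members (35.0%, against 24.9% of all genes tested) and the lowest for 17 (28.3%, against 21.3%). It lay more than 0.3 on the log2 scale from the mean of KO replicates 1 and 3 for 28 members, 18 above and 10 below (46.7%, against 26.8% of all genes tested). The same distance within their own groups was passed by 10 members for KO replicate 1, 14 for KO replicate 3, and 7, 5 and 9 for WT replicates 1 to 3. Members of the table differ in level and reads from the average gene, so these shares are descriptions of the libraries. The farthest above were Plxnd1 (log2 1.03), Robo3 (0.96), Epha7 (0.79), Efnb2 (0.73) and Slit3 (0.51), and the farthest below were Epha2 (-0.53), Slit1 (-0.48), Sema4g (-0.45), Sema3c (-0.45) and Efna5 (-0.42). Efnb3, the most abundant member, was also lowest there, at 49.7 FPKM against 66.6 and 63.7 FPKM in KO replicates 1 and 3. Plxnb3, Efna3 and Sema4d lay within 0.3 of the other KO libraries.

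**Figure D4:**
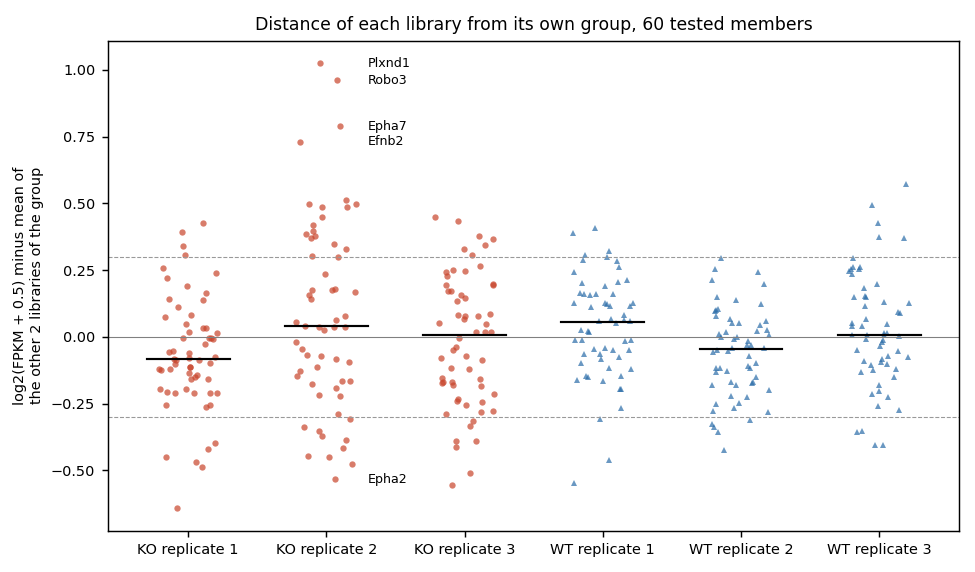
Each point is 1 of 60 tested members, at its log2(FPKM + 0.5) in a library minus the mean of the other 2 libraries of that group; dashed lines mark 0.3 and black bars the median. KO replicate 2 has 28 members beyond the dashed lines, against 10 and 14 for the other KO libraries and 5 to 9 for WT libraries. Of all genes tested, 26.8% lay beyond that distance in KO replicate 2, 20.4% and 18.0% in the other KO libraries and 14.6% to 19.5% in WT libraries.

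Markers of several cell types and regions differed beside the members. The lists were chosen with earlier results of these data known. Their counts, here and for the further lists below, are set against 8.36% of all genes tested higher and 6.85% lower in KO at an unadjusted limma p under 0.05. With few markers per list, a count of 1 or 2 says little beside those shares. The 16 oligodendrocyte markers summed to 1051 to 1559 FPKM in KO and 1705 to 2257 FPKM in WT, and 13 of 16 were lower and 0 higher at an unadjusted limma p under 0.05. This list was lowest in KO replicate 2, as were Plxnb3, Sema3c and Sema3d, while Sema4d was level across KO. The 10 oligodendrocyte precursor markers summed to 131 to 184 FPKM in KO and 190 to 235 FPKM in WT, with 4 lower and 0 higher. Those 4 were Olig1, Gpr17, Enpp6 and Ptprz1. The precursor markers Pdgfra (log2 -0.22), Cspg4 (-0.08) and Vcan (-0.24) did not reach that level, nor did Bcas1, Neu4 and Lhfpl3. The 13 pallial excitatory markers summed to 626 to 932 FPKM in KO and 362 to 433 FPKM in WT (9 higher, 0 lower). Most of this sum came from Nrgn and Camk2a, at 478 and 282 FPKM in KO replicate 2, so it says little about the other markers of the list. The 12 markers of medium spiny neurons, which project out of the striatum, summed to 1180 to 1669 FPKM in KO and 825 to 1104 FPKM in WT (6 higher, 0 lower). Both neuronal lists peaked in KO replicate 2, the library in which Sema7a, Plxnd1, Slit3 and Efnb1 also peaked, whereas Efna3 and Sema4b were lowest of the KO libraries there. The 12 hypothalamic and thalamic markers summed to 31.4 FPKM in KO replicate 2 and 1136 FPKM in KO replicate 1, and to 563 to 1028 FPKM in WT. Most of that range lay in Avp and Oxt, at 894 and 168 FPKM in KO replicate 1 and 2.20 and 0.103 FPKM in KO replicate 2. The sum therefore says little about the other markers of this list. Of 11 tested, 2 were lower, Zic1 and Tcf7l2, and 0 higher, and Sim1 was at 0 in at least 1 library. The part of these lists in the members' differences was not tested.

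**Figure D5:**
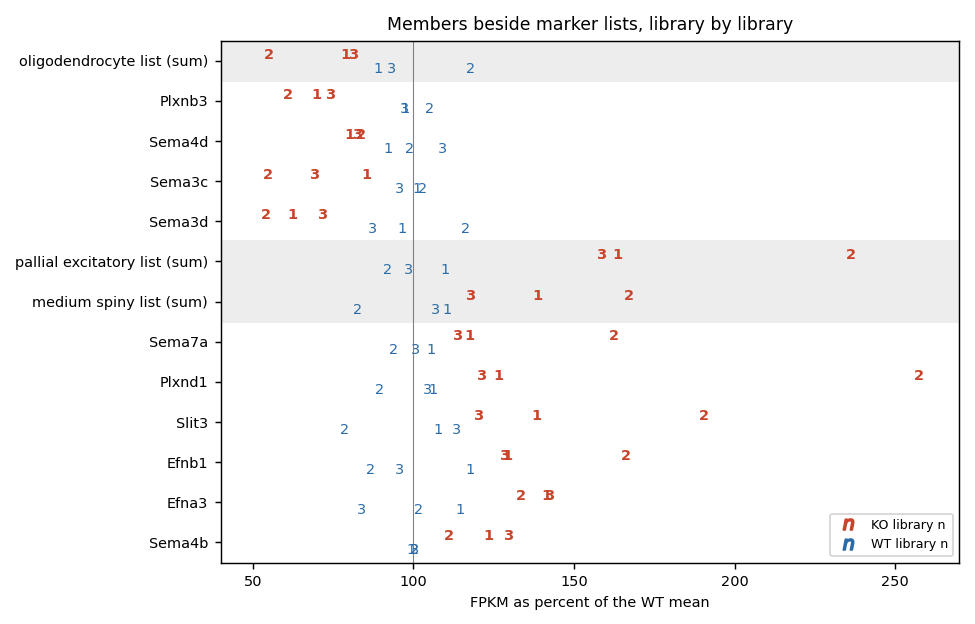
Level in each library as percent of the WT mean, for 3 marker lists (shaded rows, summed FPKM) and for the 9 members with an unadjusted p under 0.05 together with Plxnd1; digits are replicate numbers, bold red for KO above blue for WT. The oligodendrocyte list lies left of WT in each KO library, and the excitatory and medium spiny lists lie right of it. Members were placed under a list by the direction of their difference alone. None of them has overlapping groups, so the side on which they lie was set by that choice. Plxna2 and Sema5b, whose groups do not overlap either, are not drawn.

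Astrocyte markers summed to 685 to 793 FPKM in KO and 691 to 736 FPKM in WT, with 0 of 10 at the unadjusted level. Microglial markers summed to 254 to 330 FPKM in KO and 305 to 336 FPKM in WT, with 5 of 11 lower. Endothelial markers, of interest for Robo4, Sema3g and Plxnd1, summed to 113 to 133 FPKM in KO and 114 to 145 FPKM in WT, with 1 of 10 lower (10%, against 6.85% of all genes tested). Interneuron markers summed to 774 to 897 FPKM in KO and 673 to 793 FPKM in WT, with 4 of 10 higher and 1 lower. Meningeal fibroblast markers summed to 19.8 to 21.1 FPKM in KO and 7.32 to 29.1 FPKM in WT, with 0 of 8 tested at that level. Choroid plexus markers summed to 9.16 to 27.3 FPKM in KO and 34.2 to 38 FPKM in WT, with 1 of 3 tested lower and Folr1 at 0 in at least 1 library. Of these lists, the choroid plexus sum did not overlap between the groups. That gap lay in Ttr, at 4.01, 0.634 and 18.7 FPKM in KO replicates 1 to 3 and 26.9, 29.6 and 24.8 FPKM in WT replicates 1 to 3. The other tested markers of the list, Clic6 and Kl, had log2 differences of 0.10 and 0.03.

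Guidance genes outside these families were counted in the same way. Among 30 tested of 31 listed ligands, receptors and adhesion partners, 4 were higher and 4 lower at an unadjusted p under 0.05. Either count is 13.3% of those tested, against 8.36% higher and 6.85% lower over all genes. The median log2 difference was 0.01, and 0 passed after adjustment. The netrin receptors Unc5a and Unc5b stood on opposite sides. Unc5b, found on vessels as well as axons, measured 5.30, 4.51 and 6.31 FPKM in KO and 7.55, 8.86 and 9.86 FPKM in WT (log2 -0.66 ± 0.14 SE, limma adjusted p = 0.20). Unc5a, a neuronal receptor, measured 20.0, 25.1 and 21.1 FPKM in KO and 17.2, 13.9 and 13.0 FPKM in WT (log2 0.57 ± 0.13 SE, limma adjusted p = 0.20). Neither gene had overlapping groups. The adhesion gene Islr2 (0.87 ± 0.23), the receptor regulator Lrig1 (-0.43 ± 0.13) and the adhesion gene Chl1 (-0.33 ± 0.11, errors are SE) followed by p.

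Among 50 cytoplasmic effectors, which carry guidance signals to the cytoskeleton, 5 were higher and 5 lower at the unadjusted level (10% either way, against 8.36% and 6.85% of all genes), with a median log2 difference of 0.00 and 0 passing after adjustment. The collapsin response mediators, which act downstream of semaphorins, did not share a direction. Dpysl3 measured 8.61, 8.94 and 9.07 FPKM in KO and 11.5, 11.1 and 11.1 FPKM in WT (log2 -0.32 ± 0.07 SE, limma adjusted p = 0.187). Dpysl4 measured 7.66, 8.01 and 7.34 FPKM in KO and 6.6, 6.25 and 5.97 FPKM in WT (log2 0.27 ± 0.08 SE, limma adjusted p = 0.222), and Crmp1 had a log2 difference of 0.27 ± 0.09 SE. In these 3 the KO and WT libraries did not overlap, while Dpysl2 (log2 0.13 ± 0.10 SE) and Dpysl5 (log2 -0.03 ± 0.08 SE) had overlapping groups. The kinases Limk1 (-0.34 ± 0.10 SE) and Pak3 (-0.26 ± 0.09 SE), which regulate actin, were the others with the smallest p.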

How the data were processed

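The authors deposited 1 table of FPKM values with gene lengths, coordinates and biotypes. The genome build was GRCm38 (mm10), per the submitters' processing notes. RNA was column-purified and a SMARTer mRNA kit served for library preparation, per the labels' protocols. For the aligner, counter, annotation and use of strand the sources used here give nothing. Of the members, 6 members overlap another gene of at least 0.5 FPKM on the opposite strand (Epha1, Epha5, Epha6, Epha7, Epha10 and Nrp2), so their values are uncertain. FPKM times gene length gave whole multiples of 1 step in 100% of nonzero values (tolerance 0.01), taken as reads. All sample columns matched a sample and 0 were left over.

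Limma 3.58.1 in R 4.3.3 (trend and robust settings) was fitted to log2(FPKM + 0.5), which understates differences of low genes. The method was also run on simulated reads with the same spread in every gene and library. That run cannot show how the method fares with a library that stands apart, as KO replicate 2 does, and its outcome is not given here. Members, the 2 pathway lists and the 11 marker lists were chosen with earlier results of these data known. Named members were those of at least 1 FPKM with non-overlapping groups (at most 12 per direction) and the highest of each family; from pathway lists, the 5 with the smallest p. Other members were named after their values were seen. Alternatives covered pseudocount, filter, scaling, empirical Bayes settings, weights, biotype, replicate block and each library left out, and voom was added after seeing the data. The files held no sequences, and none are shown.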

Additional observations from a re-analysis of the deposited data

How the results depend on the processing

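No member passed the adjusted threshold under any of the 18 alternatives. Each of the 12 members of at least 1 FPKM with non-overlapping groups kept its sign in every alternative that tested it. They were chosen because their groups do not overlap. A left-out library or another pseudocount, filter or empirical Bayes setting therefore could not reverse the sign, and keeping it lends no support. The lowest adjusted p of these members in limma was 0.0765, for Plxnb3. The median log2 difference of the members lay between -0.04 and 0.03. The count of members at an unadjusted p under 0.05 on the higher side, 5 in the main analysis, was 2 with a filter at a mean of 5 FPKM (28 members tested), 2 with an equal FPKM sum per library and 2 with the replicate block (against 11.8%, 4.09% and 5.66% of all genes), and 1 to 6 with a library left out. The count on the lower side, 4 in the main analysis, was 8 with voom (against 10.1% of all genes) and 4 to 7 with a library left out. Over all genes 2 passed in the main analysis. That count was 0 with a pseudocount of 0.1, no filter, a filter at 5 FPKM, the replicate block, protein-coding genes only and voom, 1 with quantile normalization, 5 with an equal FPKM sum and 0 to 9 with a library left out. The cause was not tested. Cntnap4 did not pass under any alternative, with log2 values between -1.36 and -0.80 and adjusted p between 0.159 and 0.498, and it fell under the filter at 5 FPKM. The labels state no pairing of the samples. Deviations of same-numbered KO and WT libraries from their group means correlated at -0.09, -0.14 and -0.07. With 3 libraries per group, such values cannot show whether samples were paired, so the block tests only a shared number. The planned edgeR test was not run, and voom on the recovered reads took its place. Depth limits the members under 0.5 FPKM, which had 17 reads or fewer per library.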
